A study of Mus musculus with 4 samples.

Results

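The abundance of transcripts was described in 1 liver sample, from wild-type male mice kept on a normal diet in which fat gave 18% of calories. Each gene was represented by its brightest probe on that array, and genes whose probe the scanner software marked as well above background were ranked by processed signal. Of 20886 genes named on the array, 14388 (68.9%) met this condition and form the ranking. The study crossed diet with loss of catalase, which destroys hydrogen peroxide in peroxisomes. Its other samples were a wild type given a diet with 60.3% of calories as fat (the high-fat wild type below), a catalase knockout given the normal diet (the normal-diet knockout) and a catalase knockout given the high-fat diet (the high-fat knockout). The sample described is the normal-diet wild type. All mice were male and ate their diet for 11 weeks, from 29 to 40 weeks of age. Each of the 4 groups had 1 array, a 1-colour Agilent 44K mouse array hybridised with Cy3-labelled liver RNA. The labels do not state the strain, the number of mice behind a sample, the feeding state or the hour of collection. No value below therefore has a replicate, no test was possible, and the ± after a signal is the scanner software's error for that spot.

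The liver is the body's main source of plasma proteins. Hepatocytes, its most numerous parenchymal cells, secrete albumin, transport proteins, clotting factors, complement and lipoproteins. They also make urea, store and release glucose, oxidise and synthesise fat, and modify drugs and steroids. Kupffer cells, sinusoidal endothelium, stellate cells and bile duct epithelium make up most of the rest of the tissue. In male mice the liver secretes major urinary proteins (Mup), which carry pheromones into urine.

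Processed signal is fluorescence after background subtraction, in the scanner's linear units. The error was 10% of the signal for the median gene among the 1000 brightest, and 22.3% for the dimmest gene in the ranking. Of 399 probes printed as 10 spots, 270 had all spots well above background. Over these 270 the median spread within the array was 4.37% of the mean (SD), and dimmer probes are not covered. A signal orders transcripts only roughly, since probes differ in how strongly they bind. That error can be read from genes with 2 probes that were both above background. Over 2825 such genes the 2 probes differed by a median of 3.44-fold, by no more than 2-fold in 32.6% and by over 10-fold in 25.2%. Small gaps in rank between different genes are therefore within the error of the method. Even the whole span of the 100 brightest genes, from 749789 to 245231, was less than that median of 3.44-fold.

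The promoters of a few genes are given here, because genes at the top of the ranking and 1 pair of near-identical copies return in the results below. The letters are the 250 bases before the transcription start from RefSeq (GRCm38.p6), each on the strand of its gene, with capitals marking matches of 4 short motifs on either strand. These were TATAAA, the core of the TATA box, and GGCGGG, the core of the GC box. The others were GTTAAT, an AT-rich motif, and CCAAT, the CCAAT box. The first 3 genes, albumin (Alb), alpha-1 antitrypsin (Serpina1a) and liver fatty acid binding protein (Fabp1), were among the 13 brightest. Alb lies at chr5:90460620-90460869, Serpina1a at chr12:103863620-103863869 on the minus strand, and Fabp1 at chr6:71199629-71199878.
Alb: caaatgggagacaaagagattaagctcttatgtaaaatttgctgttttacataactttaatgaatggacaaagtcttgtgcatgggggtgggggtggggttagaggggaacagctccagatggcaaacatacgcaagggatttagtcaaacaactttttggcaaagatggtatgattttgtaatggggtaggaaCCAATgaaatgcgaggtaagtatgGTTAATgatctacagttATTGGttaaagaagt
Serpina1a: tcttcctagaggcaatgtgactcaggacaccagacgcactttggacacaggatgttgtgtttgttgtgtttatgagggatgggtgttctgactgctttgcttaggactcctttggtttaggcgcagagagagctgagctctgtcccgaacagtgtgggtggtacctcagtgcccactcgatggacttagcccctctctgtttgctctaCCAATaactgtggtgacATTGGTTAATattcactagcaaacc
Fabp1: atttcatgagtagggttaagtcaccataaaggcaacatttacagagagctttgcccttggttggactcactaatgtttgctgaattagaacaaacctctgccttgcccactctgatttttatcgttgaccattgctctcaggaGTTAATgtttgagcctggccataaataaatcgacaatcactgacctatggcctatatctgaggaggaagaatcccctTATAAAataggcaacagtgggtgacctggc
GTTAAT began 32 bases before the start in Alb, 21 bases before it in Serpina1a and 107 bases before it in Fabp1. In Serpina1a the match shared 1 base with a CCAAT match of the opposite strand. Of the 3, only Fabp1 held TATAAA, 30 bases before its start. These matches describe the letters and do not show that a factor binds there.

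The brightest gene was Apoa2, an apolipoprotein of high-density lipoprotein, at 749789 ± 74979. Alb followed at 715935 ± 71594, then Serpina1a, the main plasma inhibitor of elastase, at 664952 ± 66495. Mup19 stood at 612348 ± 61235 and transferrin (Trf), the iron carrier of plasma, at 572443 ± 57244. Their order is not firm, since neighbours differed by less than these errors, and the differences between probes described above are larger still. No spot was saturated, and the brightest reached 96.2% of the saturation value. The median over all 20886 genes was 187, and over the 14388 in the ranking it was 816. The ranking ended at 21.5, with Speer4a, Cdkn3 (21.7) and Olfr1496 (22.0) just inside it. The highest genes outside it were Ackr3 (33.0), 4931403G20Rik (32.9) and Prdm13 (32.8), so the flag did not follow the signal strictly. Within 3-fold of the dimmest signal lay 1771 ranked genes, for which detection is marginal.

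Signal was concentrated in few genes. The 10 brightest held 4.54% of the summed signal of the ranking, the 100 brightest 27.0% and the 1000 brightest 74.99%. The signal was 245231 at rank 100 and 25698 at rank 1000. At rank 5000 it was 2019.

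**Figure D1:**
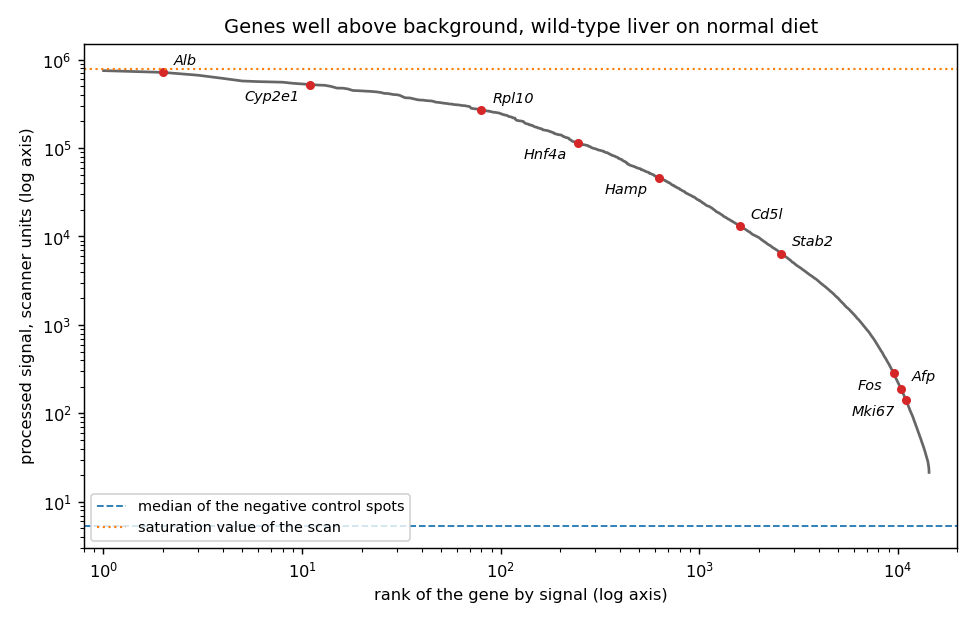
Processed signal against rank on log axes for the 14388 genes well above background in wild-type liver on the normal diet, with 10 genes marked. The curve declines from 749789 to 245231 over the first 100 genes, below the saturation value (dotted), and drops steeply after about rank 5000 towards the negative control spots (dashed, median 5.30).

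Secreted proteins were the largest listed class at the top. Of the 100 brightest genes, 36 belonged to 8 lists of secreted proteins that together held 164 genes, and these 36 carried 11.8% of the summed signal. A further 23 belonged to lists of metabolic enzymes and carriers (418 genes, 5.83% of the signal), and 5 to lists of the general cell machinery (370 genes, 1.09%). 3 genes, Trf, haptoglobin (Hp) and hemopexin (Hpx), counted as both secreted and metabolic. The remaining 39 were in none of these lists and carried 9.18% of the signal. The split depends on which genes the lists hold, as Mug1, Mug2, Akr1c6, Cyb5a and Car3 were counted among the 39.

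Many of these 39 names rest on a probe that other probes of the same gene did not match. Of 11 secreted genes with several probes, 8 had a next brightest probe within 4-fold and 1 had it over 10-fold below. Among 11 metabolic genes the counts were 10 and 1. Among 26 unlisted genes with several probes, 4 were within 4-fold and 20 were over 10-fold apart. Elk1, a transcription factor of the ETS family, stood at 362253 ± 36225 on its brightest probe and at 14.9 on its other. Kctd14 stood at 347726 and 23.5 on its 2 brightest probes, and Skint7 at 314780 and 6.41. Chchd2, a mitochondrial protein gene, had 315292 and 11.0, and Glrx2, a mitochondrial glutaredoxin, had 445445 and 4381. Exosc2, an exosome subunit at rank 6 with 563514, had 1 probe and no such check. The place of these 20 genes in the ranking is uncertain, and whether the bright probes read another transcript was not tested. Some unlisted genes did hold up, such as Tpt1, a growth-associated protein, at 269345 on its brightest and 250970 on its next probe.

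**Figure D2:**
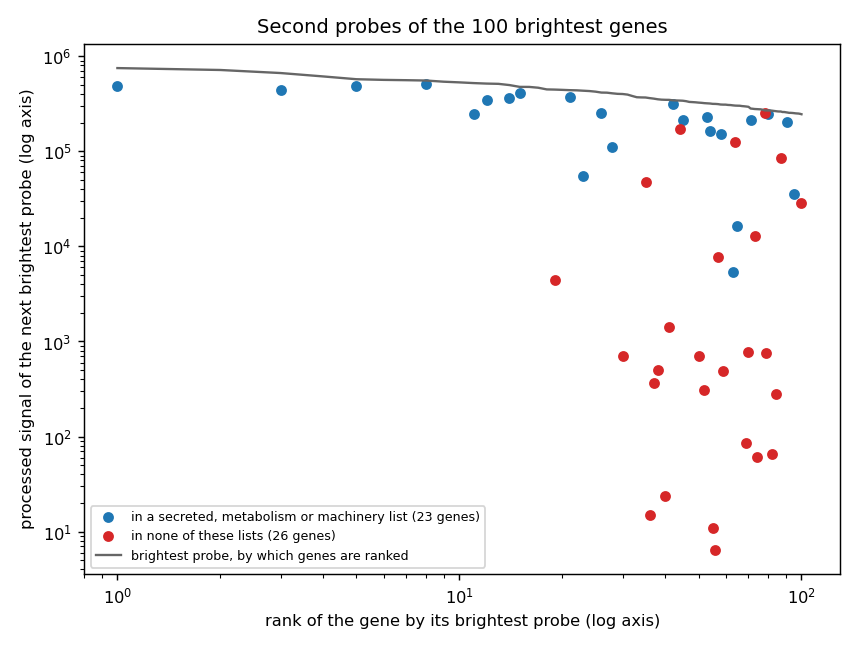
Signal of the next brightest probe against rank for the 49 genes with several probes among the 100 brightest in wild-type liver on the normal diet, both axes log. Genes in the function lists (blue, 23 genes) mostly sit close under the line of the brightest probe, and 20 of the 26 others (red) lie over 10-fold below it.

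Carriers and inhibitors of plasma supplied more of the 100 brightest genes, 12, than any other list of secreted proteins. Of 24 measured, 23 were above background and 22 were in the brightest 1000, with a median signal of 210060. Behind Alb and Trf came fetuin-A (Ahsg), an inhibitor of calcification, at 559205, and Ambp, the precursor of alpha-1-microglobulin and bikunin, at 530432. Transthyretin (Ttr), which carries thyroid hormone and retinol binding protein, stood at 394596, and retinol binding protein itself (Rbp4) at 381530. The thyroxine carrier Serpina7 was the dimmest at 1303, and A1bg, a plasma protein gene expressed mainly in female mouse liver, was not above background at 4.76.

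All 10 major urinary protein genes were above background, with a median of 425402 and a lowest value of 96680 for Mup6. Mup20, the pheromone darcin, reached 496941 and Mup2 465906. Within the serpin A family, 20 of 22 were above background and 10 were in the brightest 1000. Serpina1e stood at 554572, Serpina1d at 475751, Serpina1c at 475157 and Serpina3k, a kallikrein-binding protein, at 423604. Serpina5, the protein C inhibitor, was the dimmest above background at 89.9. The Mup genes and the Serpina1 copies are known to be near-identical within their clusters, so a probe may read several of them and the values of single members are uncertain.

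Apolipoproteins and lipoprotein factors were all above background, 24 of 24, with a median of 64450. Apoe, a ligand of remnant receptors, stood at 539053, Apoc1 at 447344 and Apoc3, an inhibitor of lipoprotein lipase, at 370103. Apob, the structural protein of very low-density lipoprotein, stood at 93856 and Apoa1 at 130272. Apod, made mostly outside the liver, was lowest at 130.

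Every measured member of the clotting and complement lists was above background. All 26 coagulation and fibrinolysis genes had a median of 50141, led by kininogen (Kng1) at 433477, antithrombin (Serpinc1) at 429852, and the fibrinogen chains Fgg at 401834 and Fgb at 368476. F8, made by endothelium in mouse liver, was the dimmest at 436. The 24 complement and lectin genes had a median of 36794, with C3, the hub of the cascade, at 515118 and C7 lowest at 47.0. The second probe of Kng1 read 54899, so its place is less firm than that of C3, whose second probe read 349398.

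A list of 17 acute phase genes that leaves out Hp had a median of 16213, with all members above background and none in the brightest 100. Metallothionein Mt1 stood at 164432 and orosomucoid Orm1 at 57397. Serum amyloid A genes differed, with Saa1 at 35921 and Saa3 at 1442, and Lcn2 stood at 1838. Of 19 hepatokines and growth factors, 18 were above background with a median of 3369. Selenop, the selenium carrier, reached 253697 and Igf1 64699, while Fgf21, a hormone of fasting, stood at 133 and Epo, a kidney hormone in adults, was not above background at 5.52.

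Metabolic lists formed the next layer, and nearly all their members were detected. All 41 genes of the urea cycle and amino acid catabolism were above background and 31 were in the brightest 1000 (median 49113). Bhmt, which remethylates homocysteine, led at 439247, with argininosuccinate synthase (Ass1) at 319340, Gnmt at 200817 and cystathionine beta-synthase (Cbs) at 118005. Cps1, which starts the urea cycle, stood at 40971 and the ornithine carrier Slc25a15 was lowest at 1384.

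All 21 genes of glucose and glycogen metabolism were above background (median 45275). Fbp1 stood at 258805 and Pck1 at 172521, both gluconeogenic enzymes. Ketohexokinase (Khk) stood at 163548. Liver pyruvate kinase (Pklr), the last step of glycolysis, was the dimmest of the list at 1512.

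Fat oxidation ranked above fat synthesis in median signal. The 23 mitochondrial genes of fatty acid oxidation and ketogenesis, all above background, had a median of 37245, and 29 peroxisomal oxidation genes, 26 of them above background, had 25749. Acaa2, a mitochondrial thiolase, stood at 280003, Scp2, a peroxisomal thiolase and sterol carrier, at 318023 and urate oxidase (Uox) at 241976. The peroxisomal genes Abcd2 (11.7), Dao (6.70) and Hao2 (6.77) were not above background. The 23 genes of fatty acid and triglyceride synthesis had a median of 12398, led by Scd1 at 141152, with Pnpla3 lowest at 42.9. The 22 cholesterol synthesis and uptake genes had a median of 11900, led by Ebp at 110257 and Fdps at 92712. Since medians of different probes are set side by side here, the order of these lists is a description only.

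Of 20 bile acid genes, 19 were above background (median 11131). The uptake carrier Slc10a1 stood at 301624 and Slc27a5, which activates bile acids for conjugation, at 226290. The basolateral exporter Slc51a was not above background at 4.71. Fabp1 led 13 fatty acid binding and uptake genes at 511845, with Dbi, which binds acyl-CoA, at 255601, and the list's median was 27267.

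Iron and metal handling had the highest median of the metabolic lists, 88955 over 18 genes, all above background, with ferritin light chain (Ftl1) at 406831, Hpx at 323230 and Hp at 297328. Trf, Hpx and Hp also count among the secreted proteins. All 22 antioxidant enzymes were above background (median 20082), led by Gpx1 at 348946, Sod1 at 223302 and Prdx6 at 149580, with Gpx3, a plasma peroxidase made mainly in kidney, lowest at 212. Cat, the gene deleted in the knockouts, read 2201 in the normal-diet knockout and 2220 in the high-fat knockout on its brighter probe, against 27514 in the high-fat wild type and 29880 (rank 888) in the normal-diet wild type. Whether this probe lies in the deleted part of the gene is not stated.

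Enzymes of drug and steroid metabolism were more uneven. Of 94 cytochrome P450 genes, 75 were above background and 30 were in the brightest 1000, with a median of 4204. Cyp2e1, which oxidises ethanol and ketones, led at 521422, with Cyp2d11 at 276118, Cyp2d26 at 273158 and Cyp2f2 at 249929. The steroidogenic Cyp11a1, used in adrenal and gonad, was not above background at 5.73. All 14 UDP-glucuronosyltransferases were above background (median 35214), and so were 22 of 23 glutathione S-transferases (median 21172), led by Mgst1 at 343840 and Gstp2 at 340125. Of 18 carboxylesterases 14 were above background (median 19579), led by Ces3a at 276721, and of 24 aldehyde and alcohol dehydrogenases 21 were (median 7745), led by Adh1 at 261929. Sulfotransferases stood apart, with 9 of 20 above background and a median of 17.5. Sult2a1 and Sult2a2, which sulfate steroids and bile acids mainly in female mouse liver, were among the 11 not above background.

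Most genes of the cytosolic ribosome and of oxidative phosphorylation were bright. Of 83 cytosolic ribosomal protein genes, 80 were above background and 78 were in the brightest 1000, with a median of 75743. Rpl10 led at 268565, and Rps14 stood at 210698. The 3 not above background were Rpl10l, Rpl39l and Rpl3l, copies used mainly in testis or muscle. Of 85 oxidative phosphorylation genes, 83 were above background and 67 were in the brightest 1000 (median 53503), with Cox6a1 at 309361 and Atp5b at 192368. The 2 subunits not above background, Cox7b2 and Cox8c, are testis forms, and Cox6a2, the heart and muscle form, was the dimmest detected at 43.2.

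Mitochondrial ribosomal proteins were lower than cytosolic ones, with a median of 8229 over 77 genes, 76 above background and 5 in the brightest 1000. Translation factors had a median of 7212 over 49 genes, with Eef1a1 at 154124 and its muscle and brain form Eef1a2 not above background at 8.69. Proteasome subunits had a median of 14402 over 39 genes. The 25 secretory pathway and ER chaperone genes were all above background (median 24908), led by Hspa5, the chaperone BiP, at 82290. Of 14 common reference genes, all above background, Gapdh stood at 310306 and Ppia at 298730.

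**Figure D3:**
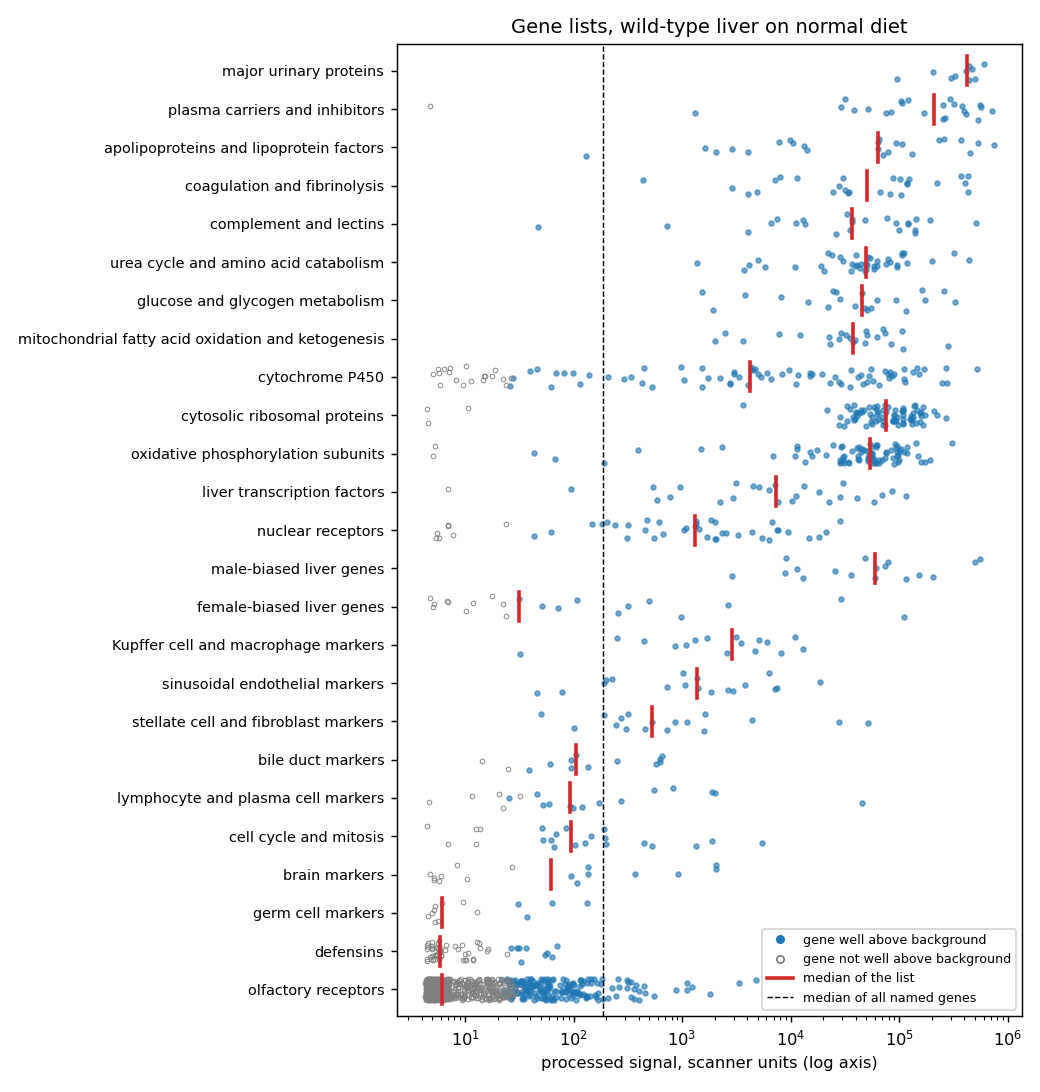
Processed signal (log axis) of each gene in 25 of the gene lists in wild-type liver on the normal diet, with list medians in red and the median of all named genes dashed. Lists of secreted proteins, metabolism, ribosome and oxidative phosphorylation lie far right of the dashed line at 187, and olfactory receptors, defensins and germ cell markers pile up near 6.

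Transcription factors of the liver were widely detected. Of 26 liver transcription factors, 25 were above background with a median of 7401. Hnf4a, a nuclear receptor central to hepatocyte identity, led at 115395 ± 11540, with Atf5 at 86100, Xbp1, which controls the secretory pathway, at 68922 and Creb3l3 at 59156. Cebpa stood at 13357. Cux2, a factor expressed mainly in female mouse liver, was not above background at 7.003. In a separate list of 45 nuclear receptors without Hnf4a, 38 were above background (median 1327) and 1 was in the brightest 1000, Ppara, the fatty acid receptor, at 28338.

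Of 18 clock genes, 17 were above background with a median of 1934, led by the output factors Tef at 30233 and Dbp at 28629. Npas2 was not above background at 4.86. As the hour of collection is not given, these levels belong to an unknown phase. Among 17 immediate early and heat shock genes, all above background, the constitutive chaperone Hspa8 stood at 234416, Egr1 at 4140 and Fos at 284, and the median was 876.

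Cell division genes were dim. Of 22 cell cycle and mitosis genes 17 (77.3%) were above background, against 68.9% of all named genes, with a median of 94.9 against 187 and none in the brightest 1000. Pcna, which also serves DNA repair, stood at 5453, Mki67, a proliferation marker, at 143 on one probe and 143 on the other, and Plk1 at 51.8. Of 13 fetal liver genes 8 were above background (median 35.2), with alpha-fetoprotein (Afp) at 190. The fetal growth factor Igf2 was not above background.

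For 16 functions that several related genes can serve, the form listed as the liver form was the brightest of the listed forms in each. Ldha and Eno1 were among the forms listed so. The metallothioneins compared were Mt1, Mt3 and Mt4, without Mt2, the second brightest acute phase gene after Mt1. As the members were chosen with earlier results of these data known, this order is no test. Other forms numbered 27, and 5 of them were not above background. Liver glycogen phosphorylase (Pygl) read 93441, against 243 for the muscle form Pygm and 65.1 for the brain form Pygb. Arg1, the arginase of the urea cycle, read 96476, and Arg2, the mitochondrial form, was not above background at 11.3.

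Fbp1 read 258805 against 10.8 for the muscle form Fbp2, which was not above background. Glycogen synthase Gys2 read 48024 against 184 for Gys1, the carnitine palmitoyltransferase Cpt1a 23066 against 80.1 for Cpt1b, and cytosolic Pck1 172521 against 30.4 for mitochondrial Pck2. The glucose transporter Slc2a2 read 25976 against 1167 for Slc2a1 and 69.9 for Slc2a4, the insulin-regulated form of fat and muscle. Gaps were small for pyruvate kinase (Pklr 1512, Pkm 785) and for methionine adenosyltransferase (Mat1a 58796, Mat2a 12177). In the other 14 groups the next listed form was over 10-fold below the listed liver form. Since 25.2% of 2-probe genes also passed that gap, the order of forms stays a description of these probes.

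**Figure D4:**
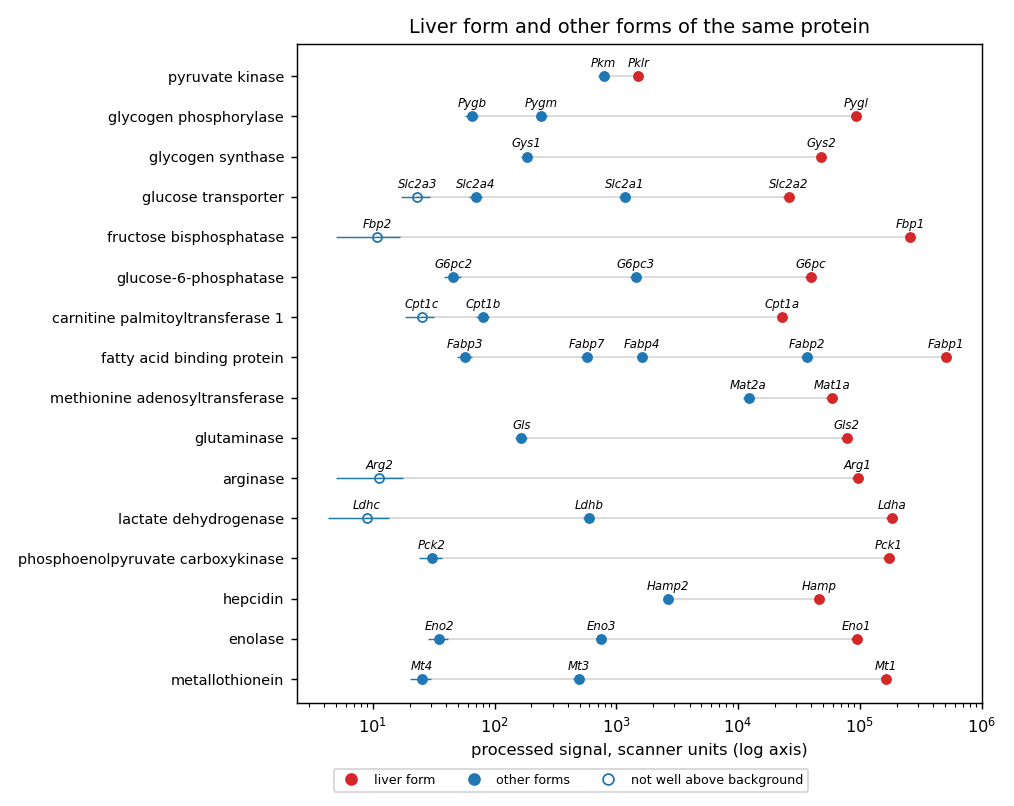
Processed signal (log axis) of the form listed as the liver form (red) and other listed forms (blue) for 16 functions in wild-type liver on the normal diet. Bars are the scanner error and open circles are genes not well above background. The red point is rightmost in every row, and lies close to a blue one for pyruvate kinase and methionine adenosyltransferase.

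The hepcidin genes had unlike signals. Hamp, the iron hormone that closes the exporter ferroportin, read 46273 ± 4627, and its copy Hamp2 read 2676 ± 268. Their promoters lie at chr7:30944030-30944279 and chr7:30924182-30924431, both on the minus strand. They are shown because the letters are so alike while the signals are not.
Hamp2: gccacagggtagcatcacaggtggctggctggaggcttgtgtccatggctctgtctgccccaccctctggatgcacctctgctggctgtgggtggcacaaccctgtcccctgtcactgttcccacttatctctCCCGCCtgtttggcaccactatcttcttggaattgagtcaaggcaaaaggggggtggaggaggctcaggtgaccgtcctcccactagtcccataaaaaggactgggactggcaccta
Hamp: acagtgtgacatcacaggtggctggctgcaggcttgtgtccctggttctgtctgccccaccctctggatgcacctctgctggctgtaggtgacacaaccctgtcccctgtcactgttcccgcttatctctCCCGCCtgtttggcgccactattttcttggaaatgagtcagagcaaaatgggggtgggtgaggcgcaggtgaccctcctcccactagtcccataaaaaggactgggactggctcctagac
Of 253 aligned columns of these 250-base windows, 227 (89.7%) were identical. Each held 1 GGCGGG match, on the opposite strand, and none of the other 3 motifs. Hamp2 read 19711 in the high-fat wild type, 34283 in the normal-diet knockout and 10384 in the high-fat knockout, against 2676 in the normal-diet wild type, its lowest value of the 4 arrays. Hamp read 60207, 98675 and 44610 in the same order, against 46273 in the normal-diet wild type. The transcripts are near-identical too, so the probes may not separate them fully.

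Male-biased liver genes were bright, and female-biased ones were less often above background than named genes as a whole. All 17 male-biased liver genes were above background, with a median of 59392 and 12 in the brightest 1000, including Serpina1e and Mup20 described above and Gstp1 at 204159. Of 21 female-biased genes 11 (52.4%) were above background, against 68.9% of all named genes. Their median was 31.6 over all 21, against 187 for all named genes, and 316 over the 11 above background. Cyp2a4, a steroid hydroxylase that shares most of its sequence with a copy in both sexes, stood at 111363, and Cyp3a16 at 29139. On the other arrays 15 female-biased genes were above background in the high-fat wild type, 14 in the normal-diet knockout and 16 in the high-fat knockout, against 11 here. Over all 20886 named genes these counts were 14003, 14124 and 14688, against 14388 here. Xist, the RNA of the inactive X chromosome, was not above background at 6.91, and of 6 Y-linked genes 3 were above it, Eif2s3y (5121), Ddx3y (2610) and Uty (110), while Kdm5d, Sry and Usp9y were not.

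Both zones of the liver lobule were represented. All 17 pericentral genes, those expressed around the central vein, were above background with a median of 9788, led by Cyp2e1 and by Rgn at 179074. All 16 periportal genes were above background with a median of 39842, led by Ass1, Cyp2f2, Pck1 and Arg1. The pericentral Glul, glutamine synthetase, stood at 39002, Cyp1a2 at 15770 and the Wnt target Axin2 at 99.2. Zones differ in size, so these medians do not compare expression per cell.

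The sample read as liver by its cell markers. All 14 hepatocyte markers were above background and in the brightest 1000 (median 122834), with Tdo2 the dimmest at 28476. All 16 Kupffer cell and macrophage markers were above background (median 2862), led by Cd5l at 13124 and Csf1r at 10994, with Clec4f, specific to Kupffer cells, at 6041. All 18 sinusoidal endothelial markers were above background (median 1379), led by Clec4g at 18596 and Ehd3 at 7511, with Stab2, a scavenger receptor, at 6391. In a bulk sample, fewer cells of a type and less RNA per cell cannot be told apart.

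All 17 stellate cell and fibroblast markers were above background (median 533), with decorin (Dcn) at 51182 and Ecm1, at 28158 on its brightest and 1169 on its other probe, the 2 genes of the list in the brightest 1000. Bile duct markers were low, 11 of 13 above background with a median of 104, Krt19 at 136, Krt7 at 38.5 and Epcam not above background at 14.4. Of 10 erythroid genes 9 were above background (median 1951), with the globin gene Hba-a2 at 61884 and Alas2, the erythroid heme enzyme, at 19154. How much blood remained in the tissue was not measured.

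Lymphocyte and neutrophil markers had medians below the 187 of all named genes. Of 19 lymphocyte and plasma cell markers 14 (73.7%) were above background, against 68.9% of all named genes. Their median was 92.7, with Cd3e, a T cell receptor subunit, at 1902. Cd4 stood at 45217 on its brightest probe and 50.9 on its other, so its place in the brightest 1000 rests on 1 probe. Of 11 neutrophil markers 6 (54.5%) were above background. The median was 61.2 over all 11 and 755 over the 6. Csf3r, read by 1 probe, stood at 59096, and S100a8, an abundant neutrophil protein gene, at 331. Elane and S100a9 read between them.

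Each list of markers of other tissues had a median below the 187 of all named genes, though some members read above it. Each was also less often above background than the 68.9% of all named genes. Of 8 adipose markers 4 were above background. Car3, a carbonic anhydrase abundant in adipose tissue and also in male liver, read 342339, and the fat cell hormone genes Adipoq and Lep were not above background. Of 13 pancreas markers 7 were above background (median 25.1), with Ctrb1 at 769. Counts above background were 6 of 14 for skeletal and heart muscle (median 22.3), 8 of 16 for brain (61.4), 4 of 13 for germ cells (6.18), 5 of 9 for kidney (29.3), 4 of 7 for lung (23.1) and 2 of 10 for gut and stomach (7.82). The brightest gut marker was Fabp2, an intestinal fatty acid binding protein gene that read 36631, and the brightest brain marker was Snap25, a synaptic protein gene, at 2073.

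Families of sensory receptors and the defensins had medians at the floor of the array. Of 1361 olfactory, vomeronasal and taste receptor genes, 236 were above background. The medians were 6.11 for 1071 olfactory receptors, 6.04 for 252 vomeronasal receptors and 6.17 for 38 taste receptors, close to the 5.30 of the negative control spots. Olfactory receptors passed in 17.7% of cases, against 2.61% (4 of 153) for the negative control spots, and their highest value was 4809 for Olfr1535. A second set of control spots, named E1A, also had a median near the floor (5.74), and 39 of its 320 spots passed. Receptor genes were judged on their brightest probe and controls on single spots, so these shares are not strictly alike. Whether the receptor passes reflect transcripts was not tested. Of 58 defensins 9 were above background, with the highest, Defb15, at 69.8.

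Developmental and signalling families had medians below that of all named genes, some of them close to the floor. Above background were 10 of 39 Hox genes (median 16.0, highest Hoxb4 at 247), 9 of 19 Wnt ligands (26.3), 7 of 22 Fgf ligands (11.1), 14 of 32 interleukins (16.8) and 9 of 15 interferons (47.5). Above background were also 46 of 99 voltage-gated ion channels (18.97), 19 of 58 neurotransmitter receptor channels (9.58) and 10 of 33 clustered protocadherins (6.99). Among the channels Scn8a, a neuronal sodium channel gene, read 45254 on its brightest probe and 12.9 on the next. Of 49 keratins 25 were above background (median 29.9), and the highest were Krt18 at 76243 and Krt8 at 13050, the pair that forms hepatocyte filaments. Of 51 keratin-associated proteins 24 were above background (16.4). Broad families lay near the median of all genes, with zinc finger proteins at 244 (312 of 367 above background) and proteins with Slc transporter names at 238 (274 of 371).

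Promoter composition changed along the ranking. A 300-base window from 250 bases before to 50 after the start was in the RefSeq table for 77 of the 100 brightest genes. GTTAAT occurred in 20.8% of these 77 windows, in 7.96% of 716 windows of the next 900 genes, in 4.19% of 3266 windows of the 4000 genes after those, in 5.11% of 7403 windows of the remaining 9388 ranked genes and in 8.45% of 5089 for genes not above background. Over all 27025 promoters of the table the share was 7.20%. Of 26 secreted genes of the brightest 100 with a window, 9 (34.6%) held it.

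GGCGGG was less frequent in the 100 brightest than in the other ranked genes, with 29.9% in the 100 brightest, 52.2% in the next 900 genes, 63.96% in the 4000 after those, 54.4% in the remaining ranked genes and 27.4% in genes not above background, against 35.5% of all promoters. TATAAA occurred anywhere in the window in 20.8%, 12.6%, 7.32%, 9.51% and 20.6% in the same order, against 14.2%. Counted only from 40 to 19 bases before the start, the shares were 5.19% (4 of 77), 2.79%, 1.16%, 2.11% and 4.58%, against 2.16%. CCAAT was more even, at 48.1%, 43.6%, 38.8%, 37.3% and 40.0%, against 37.9%. Median GC content was 49.7% in the 100 brightest, 57.7% in the next 900 genes, 60.7% in the 4000 after those, 59% in the remaining ranked genes and 50% in genes not above background. Olfactory receptor promoters had a median GC content of 35.0%, TATAAA in 40.8% and GTTAAT in 17.8%, so such AT-rich words were also frequent in GC-poor promoters of genes at the floor. Of cytosolic ribosomal protein promoters 59.0% held GGCGGG. The motifs GTTAAT and CCAAT were chosen after the ranking was seen, and near-identical families such as Mup and Serpina1 share promoter letters, so windows are not independent.

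The brightest genes were largely shared with the other 3 arrays. The high-fat wild type shared 94 of the 100 brightest genes with the normal-diet wild type, the normal-diet knockout 91 and the high-fat knockout 93, and 84 were in the top 100 of all 4. Of the 10 brightest, 8 were shared with each. No gene of the 100 fell below rank 142 in the high-fat wild type, rank 121 in the normal-diet knockout or rank 118 in the high-fat knockout. Alb read 683646, 667744 and 629837 on these arrays, against 715935 in the normal-diet wild type. Apoa2 read 752390, 750288 and 719860, against 749789.

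After scaling each array to its 75th percentile, genes above background on both arrays were called at a 2-fold difference. In the high-fat wild type against the normal-diet wild type, 0 of the 100 brightest were higher and 0 lower, beside 1.09% higher and 1.39% lower of 13727 genes. In the normal-diet knockout 0 were higher and 0 lower, beside 0.828% and 1.52% of 13774. In the high-fat knockout 0 were higher and 0 lower, beside 3.21% and 2.83% of 13956. For the genes down to Ttr (rank 31, 394596), a 2-fold rise would have passed the saturation value of 779156. At least these genes could not be called higher, so the 0 higher cannot be weighed against the share of all genes. Of the 900 genes next in rank, the shares past 2-fold in either direction were 2.44%, 1.67% and 6.11% on these arrays, and of the 4000 after those they were 1.55%, 0.950% and 3.23%.

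Within the 100 brightest, log2 differences from the normal-diet wild type ran from -0.57 to 0.19 in the high-fat wild type, from -0.44 to 0.16 in the normal-diet knockout and from -0.75 to 0.42 in the high-fat knockout. The scanner error of a difference was 0.20. Serpina3k was lowest in the high-fat knockout, at -0.75, and Hp, the acute phase carrier of hemoglobin, highest, at 0.42. Cyp2f2, a periportal P450, was lowest in the high-fat wild type at -0.57, and Synrg, whose second probe read 707 against 400180 here, in the normal-diet knockout at -0.44. The median of the 100 was -0.07, -0.07 and -0.32 in the 3 arrays, against -0.02, -0.01 and -0.07 over all genes tested. The 100 were chosen for high signal in the normal-diet wild type, a choice that can lean differences from it below 0. The 75th percentile used for scaling was 1006 there, 1019 in the high-fat wild type, 1002 in the normal-diet knockout and 1152 in the high-fat knockout. How far either shifted the medians was not tested, and nothing is read from these medians.

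**Figure D5:**
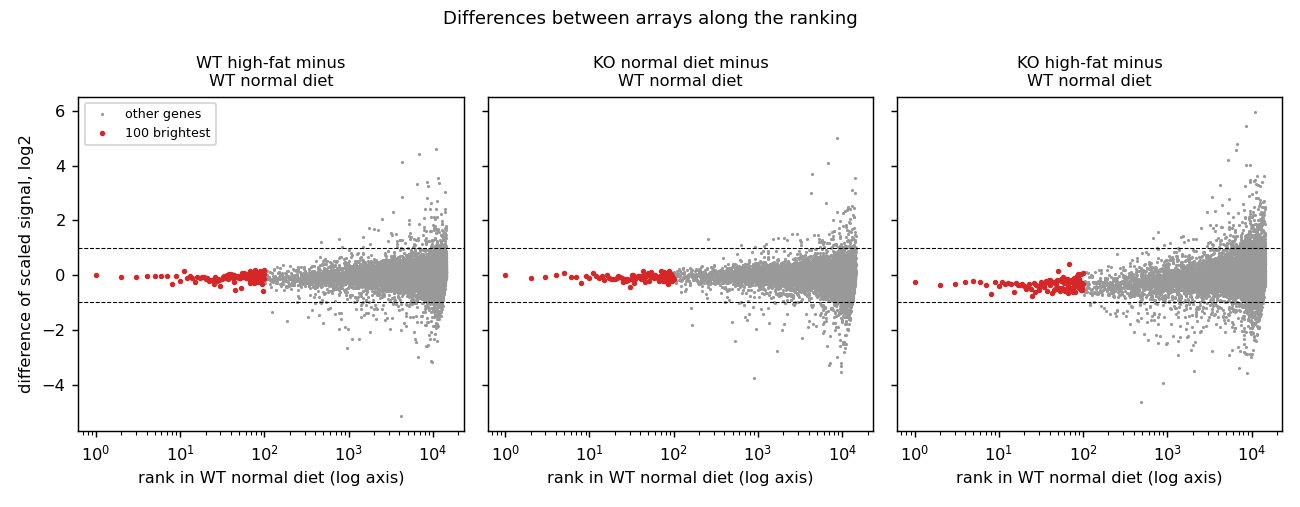
Difference of scaled signal (log2) from the normal-diet wild type against rank (log axis), for the high-fat wild type, for the normal-diet knockout and for the high-fat knockout, with 2-fold limits dashed. The 100 brightest genes (red) stay within the limits on each array, and the widest spread is among the genes after rank 5000. The saturation value leaves the brightest of the 100 no room for a 2-fold rise.

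Detection overlapped widely. Above background were 14003 genes in the high-fat wild type, 14124 in the normal-diet knockout and 14688 in the high-fat knockout, against 14388 in the normal-diet wild type, and 13544 passed on all 4. Genes above background in the normal-diet wild type alone numbered 312. Not above background there but above it on all 3 others were 86 genes. The brightest of these elsewhere was Cyp2b13, a female-biased P450, at 1903 in the high-fat wild type, 1199 in the normal-diet knockout and 4215 in the high-fat knockout, against 24.0 ± 6.2 in the normal-diet wild type. Its relative Cyp2b9 read 1186, 910 and 2101 in the same order, against 22.2 ± 6.5.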

How the data were processed

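Liver RNA of 4 mouse samples was measured, 1 array per group. The deposited scanner output came from Feature Extraction 11.5.1.1, per the file headers, and holds spot intensity after background subtraction on a linear scale, with an error and flags. The authors extracted values with GeneSpring GX 7.3, per the series' design text. Intensity in the deposited value table served as an alternative.

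Control spots and spots with an outlier flag were left out (the latter kept where no other spot existed), and spots of a probe were averaged on the log2 scale. A probe counted as detected when over 50% of its spots were well above background. By accession, 27508 of 39429 probes matched a RefSeq table of GRCm38.p6, used for names only. The brightest probe represents a gene. Differences between arrays use log2 signal minus each array's 75th percentile and a 2-fold rule. Arrays carry no count depth, and their number limits precision. The 75 gene lists, the members and the rules were chosen with earlier results of these data known. Named genes are the 40 brightest, up to 4 brightest, the dimmest detected and up to 3 undetected members of each list, all forms in the 16 groups of related genes, and the largest differences among the 100 brightest. A few genes are not reported here. A few more list members were picked once their values were known. The ranking and the size rule were run on simulated data in which all probes of a gene shared the same level. That run does not cover the differences between probes of a gene seen in the real data. Python 3.11.15, numpy 2.4.6, pandas 2.3.3, matplotlib 3.10.9, R 4.3.3 and limma 3.58.1 were used.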

Additional observations from a re-analysis of the deposited data

Results flagged for a closer look

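Probes that no gene name was found for carried signal outside the ranking. Of 11921 such probes, 5963 (50.02%) were well above background in wild-type liver on the normal diet, against 67.7% of the named probes. The brightest read 553981 ± 55398, while the highest negative control spot read 140. Unnamed probes made up 20 of the 100 brightest and 401 of the 1000 brightest probes, and 30.9% of the summed probe signal. The make-up of the ranking therefore describes named genes only.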

How the results depend on the processing

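No paired analysis was possible because each group had 1 array and no test was made. Of 115 alternative values for the main results, 96 kept within the spread set for them and 19 moved. Some of those kept could not move. The 0 calls among the 100 brightest at 3-fold follow from the 0 at 2-fold. The 14388 detected genes are also fixed with the mean of all probes, as 1 detected probe sufficed there. The deposited values matched within 1% for 99.7% of probes in the normal-diet wild type. The 96 is therefore no measure of robustness. The secreted, metabolic and unlisted counts in the brightest 100 moved by no more than 1.5 times in each alternative run. Unlisted genes fell to 26 with the mean of all probes, against 39. Those of the cell machinery were 9 with the mean of all probes and 10 with the dimmest probe of each gene, against 5. The genes themselves changed more, as 70 of the 100 brightest were kept with the mean of all probes. With the mean of all probes the 10, 100 and 1000 brightest genes held 5.62%, 30.6% and 76.6% of the signal. With normexp background correction (offset 50) the 10 and 1000 brightest held 4.27% and 74.6%. Genes past 2-fold under normexp were 86 higher and 98 lower in the high-fat wild type, 69 and 104 in the normal-diet knockout, and 230 and 254 in the high-fat knockout. Past 3-fold they were 53 and 52, 37 and 63, and 139 and 116. Under each of these the 100 brightest had 0 calls, a count that scanner saturation limits on the higher side. The median and quantile scalings left the counts within 1.5 times. Of 150 list counts, 6 moved with the mean of all probes, 17 with the looser detection flag and 3 with normexp. The normexp planned on mean signals could not be run, as the files hold median signals, and this form and the dimmest probe were chosen after seeing the data. Causes were not tested. Depth does not apply, and signals near the negative controls (median 5.30) limit what can be said of dim genes.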
